A study of Drosophila melanogaster with 23 samples.

Results

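The nuclear pore complex genes of Drosophila melanogaster were described across 23 ovary RNA-seq libraries. They were taken by name: every gene whose FlyBase symbol begins with Nup followed by a digit, together with mbo, Elys, Mtor and Gp210. The rule used no measured value, though it was set with earlier results of these data known. It gave 25 genes of the 17023 counted in the files, and all 25 passed the filter on low counts in every comparison.

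The nuclear pore complex is the channel through which RNA and protein cross the nuclear envelope. It is built from stacked rings of scaffold proteins, a membrane protein that anchors them, a central channel lined with phenylalanine-glycine (FG) repeats, filaments on the cytoplasmic side and a basket on the nuclear side. In the fly ovary the germline nurse cells carry many pores on polyploid nuclei and export the messenger RNAs that fill the egg. Nup154 and Nup107 are each needed for normal oogenesis, and the basket proteins Mtor and Nup153 have been reported to associate with the male-specific lethal (MSL) proteins in male cells.

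The libraries were poly(A) RNA-seq of dissected ovaries from flies 1 to 5 days after eclosion, in 12 groups, of which 11 had 2 libraries and whole ovaries had 1. The controls called hsbam (hsbam 1 to 4) carried bam RNAi and hsbam with the germline driver nosGAL4, and a separate set of hsbam ovaries was fractionated. The MSL3 RNAi, NC2b RNAi and Set2 RNAi libraries carried the named RNAi with UAS-Dcr2 and nosGAL4 and no bam RNAi, so that UAS-Dcr2, bam RNAi and hsbam changed together with the targeted gene and cannot be told apart from it. The bam RNAi libraries carried bam RNAi with nosGAL4, and their partners also carried an S19b mutation. S19b RNAi ovaries (with UAS-Dcr2 and nosGAL4) and hsbam ovaries were sequenced as total RNA and as the polysome fraction of a gradient, and the whole ovaries came from UAS-Dcr2 with nosGAL4 and no RNAi. nosGAL4 drives the RNAi in the germline alone, whereas each library held the somatic cells of the ovary too. Fewer cells of a type and less RNA per cell cannot be told apart in such libraries. No label says that libraries of 1 group came from separate dissections, so p-values measure the spread between these libraries.

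Library totals ran from 2780781 counts (hsbam polysome 2) to 39149303 (hsbam 3). Counts scaled to a common library total (CPM) are given below for each library, and the intervals in the text cover counting error only. msl-3 was not lower in the libraries labelled MSL3 RNAi, at 65.6 and 39.1 CPM against 32.0 and 38.5 in hsbam 1 and 2, so they are called by that label throughout. NC2beta was at 4.69 and 5.12 CPM in NC2b RNAi against 12.2 and 16.0. bam differed between the controls, at 4.61 CPM in hsbam 1, 71.9 in hsbam 2, 172.9 in hsbam 3 and 77.0 in hsbam 4. In bam RNAi it was at 2.09 and 6.17 CPM. The part of this difference in the pore genes' values was not tested. Set2 was at 62.2 and 54.3 CPM in Set2 RNAi, between the 265.8 of hsbam 3 and the 37.2 of hsbam 4. RpS19b was at 29.9 and 15.0 CPM with the S19b mutation against 188.8 and 248.9 without it, and at 16.8 and 1.44 in S19b RNAi total RNA against 39.4 and 227.5. The germline markers nanos, orb, zpg, stau and Rbp9 were detected in every library. 2 libraries stood apart: hsbam 4, which had the lowest level of 19 of the 25 pore genes among the 15 libraries that were not fractionated, and hsbam polysome 2, the shallowest, which had the lowest level of 13 of them among the 8 fractionated libraries. The share of all genes lowest in these libraries was not counted.

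The 25 genes lie on 4 chromosome arms, with 3 on 2L, 9 on 2R, 8 on 3R and 5 on the X (build dm6, Ensembl 115 annotation BDGP 6.54). Nup37 and Nup358 are neighbours on 3R, where Nup37 ends at 25249100 and Nup358 begins at 25249348. 9 of the 25 share exon bases with another annotated gene, by up to 27.6% of the exons in Nup93-2 (with CG14860) and 19.9% in Nup154 (with Art8), and both partners lie on the opposite strand. Whether reads were counted by strand is not stated, so the values of these 9 genes may hold reads of their neighbours.

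Per kilobase of exon, all 25 genes were expressed, with median levels over the 23 libraries from 16.5 to 81.7 CPM per kilobase. Nup358, which forms the cytoplasmic filaments and binds Ran, had the highest. The channel protein Nup62 followed at 70.4 and the basket protein Nup50 at 67.8. The inner-ring linker Nup93-1 was at 51.6 CPM per kilobase and the basket scaffold Mtor at 50.8. Nup98-96, a single gene that encodes both an FG-repeat protein and an outer-ring scaffold protein, was at 37.8, Nup154 at 36.7 and Nup153 at 36.4. The lowest medians were those of Nup37 at 20.7, Nup93-2 at 18.2 and, lowest of all, Elys, which recruits the outer ring to chromatin. Neighbours in this order differed by far less than the spread of each gene over libraries: Nup98-96 alone ran from 11.1 CPM per kilobase in hsbam 4 to 82.8 in MSL3 RNAi 1. Nup93-1 and Nup93-2 are paralogs, and Nup93-1 had the higher median.

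**Figure D1:**
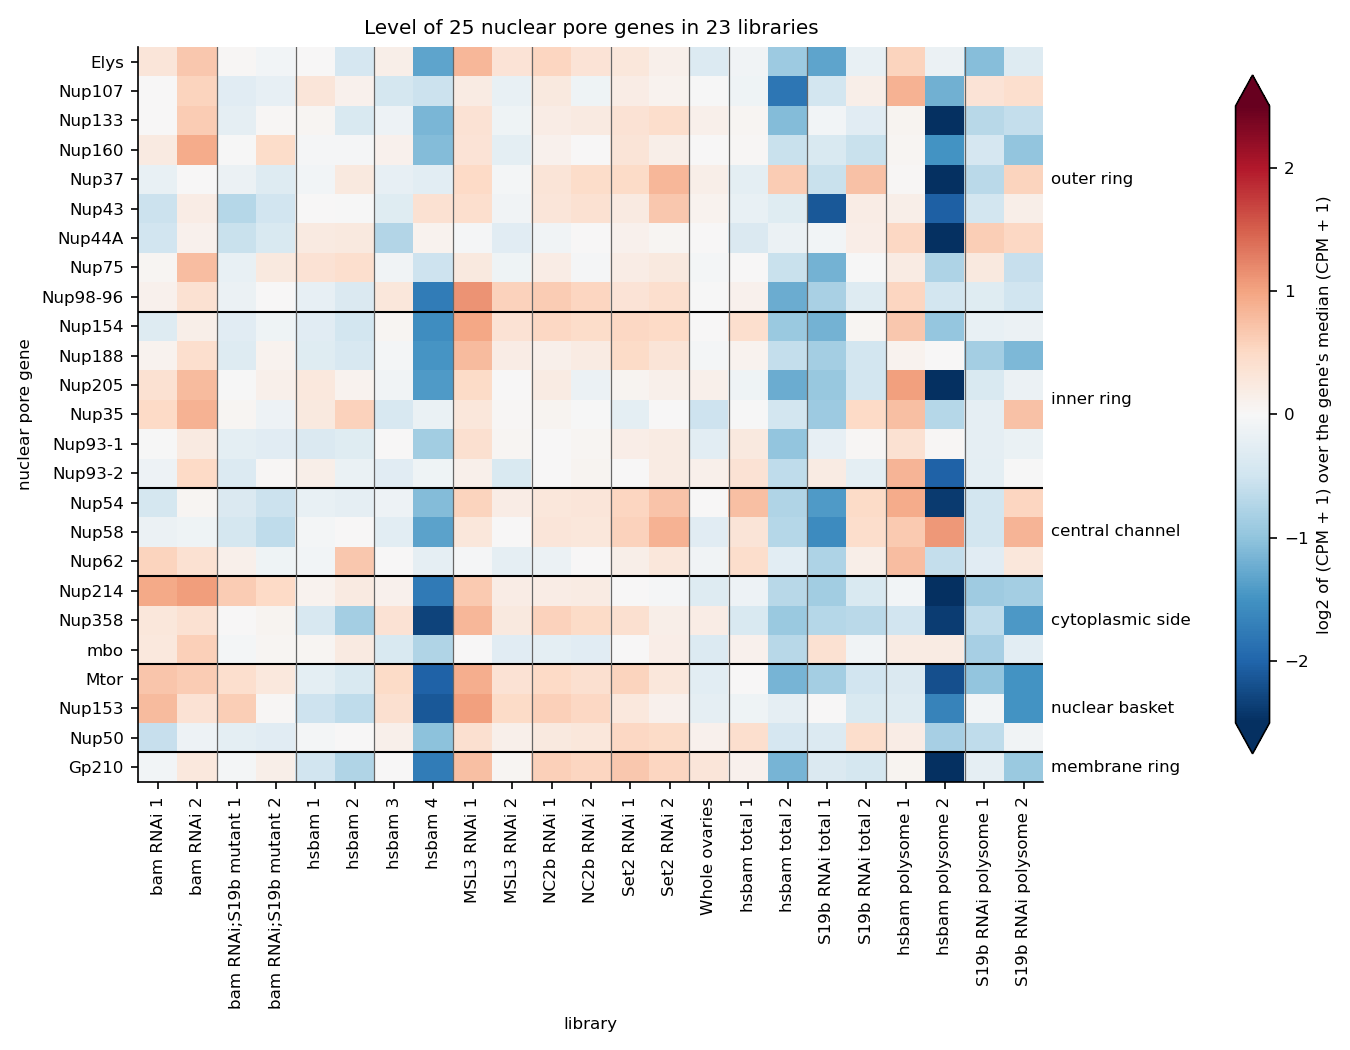
Level of each of the 25 nuclear pore genes (rows, by part of the pore) in each of the 23 libraries (columns), as log2 of (CPM + 1) over the gene's median across libraries, with the colour scale ending at 2.5 in either direction. hsbam 4 and hsbam polysome 2 are the darkest blue columns, and MSL3 RNAi 1 and bam RNAi 2 hold the highest values of 9 genes each among the 15 libraries that were not fractionated.

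Against hsbam 1 and 2, 10 of the 25 pore genes were higher and none lower in libraries with the MSL3 RNAi label (edgeR's quasi-likelihood test, Benjamini-Hochberg adjusted p under 0.05 over all genes tested), and 5 were higher and none lower in NC2b RNAi. Of all 10180 genes tested, 25.3% were called in the first comparison, 16.8% as higher and 8.48% as lower. In the second, 18.6% were called, 14.1% as higher and 4.53% as lower. The members' shares were 40% and 20%. The median log2 fold change of the 25 genes was 0.36 in MSL3 RNAi and 0.42 in NC2b RNAi, beside -0.09 over all genes in each. For 12 genes both MSL3 RNAi libraries lay above both controls (29.3% of all genes) and for 3 below them (34.3%). For NC2b RNAi these counts were 16 (31.9%) and 4 (40.6%). Both comparisons use the same hsbam libraries, so their values are given side by side and are not independent. The summed germline markers were higher in the same libraries, at 606 to 610.2 CPM in hsbam 1 and 2, 1178 to 1589 in MSL3 RNAi and 1467 to 1533 in NC2b RNAi. Of the 5 markers, 3 rose in MSL3 RNAi and 4 in NC2b RNAi. They did not all move together: log2 fold changes ran from -0.47 to 2.23 in MSL3 RNAi and from -1.47 to 2.54 in NC2b RNAi. Summed muscle-sheath markers (4 genes) ran from 3754 to 11624 CPM in hsbam 1 and 2, from 2072 to 6194 in MSL3 RNAi and from 1799 to 2106 in NC2b RNAi, and none of the 4 was called. Summed escort, cap and terminal filament markers (7 genes) went from 382.2 to 597.8 CPM in hsbam 1 and 2 to 94.2 to 127.1 in MSL3 RNAi and 252.8 to 275.1 in NC2b RNAi, and 2 of the 7 fell in each. Summed follicle and eggshell markers (9 genes) were 7372 to 16681 CPM in hsbam 1 and 2, 14009.5 to 14811 in MSL3 RNAi and 23168 to 26249 in NC2b RNAi. Of the 9, 3 and 4 rose, and the list was split. In MSL3 RNAi their log2 fold changes had a median of -0.18 and ran from -0.69 to 5.21. In NC2b RNAi the median was 0.70 and the range -1.97 to 5.63. The part of this difference in cell makeup in the pore genes' changes was not tested.

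**Figure D2:**
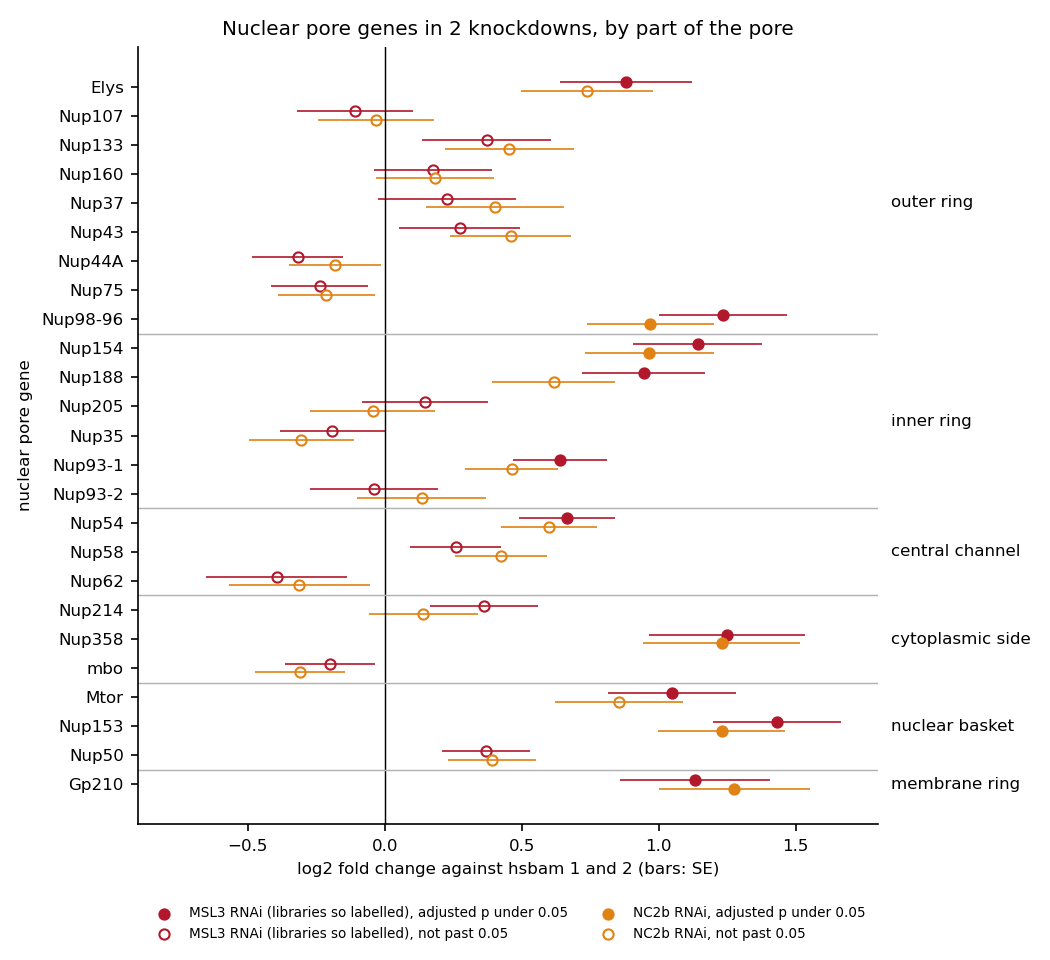
log2 fold change against hsbam 1 and 2 (horizontal axis, bars are standard errors of the edgeR fit) of the 25 nuclear pore genes (vertical axis, by part of the pore) in MSL3 RNAi and NC2b RNAi, 2 libraries a group. Filled points passed an adjusted p of 0.05: 10 in MSL3 RNAi and 5 in NC2b RNAi, all to the right of 0 and spread over the parts of the pore.

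In the nuclear basket, Nup153 (FBgn0061200, chromosome X, 16599241 to 16610459, plus strand), an FG-repeat protein of the nuclear side, had the largest change of the 25 genes in MSL3 RNAi. It was at 204.0 and 189.1 CPM in hsbam 1 and 2, at 601.7 and 407.3 in MSL3 RNAi 1 and 2, and at 441.5 and 420.5 in NC2b RNAi 1 and 2. Every MSL3 RNAi and NC2b RNAi library lay above both hsbam libraries. The log2 fold change was 1.43 (SE 0.23, edgeR adjusted p = 0.0122) in MSL3 RNAi and 1.23 (SE 0.23, adjusted p = 0.0240) in NC2b RNAi. Mtor (FBgn0013756, chromosome 2R, 11852617 to 11861202), the coiled-coil scaffold of the basket, was at 334.2 and 302.1 CPM in the controls, at 741.5 and 511.3 in MSL3 RNAi and at 555.3 and 520.8 in NC2b RNAi. The groups did not overlap. It rose by 1.05 (SE 0.23, edgeR adjusted p = 0.0258) in MSL3 RNAi, and its 0.86 (SE 0.23, adjusted p = 0.0547) in NC2b RNAi did not pass. Nup50, which binds importin alpha at the basket, had log2 fold changes of 0.37 (SE 0.16) and 0.39 (SE 0.16) and was called in neither.

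On the cytoplasmic side, Nup358 (FBgn0039302, chromosome 3R, 25249348 to 25258672) was at 530.3 and 388.2 CPM in hsbam 1 and 2. It reached 1250.2 and 830.8 CPM in MSL3 RNAi 1 and 2 and 1041 and 976.7 in NC2b RNAi. All 4 of these libraries lay above the controls, and the log2 fold change was 1.25 (SE 0.29, edgeR adjusted p = 0.0281) and 1.23 (SE 0.29, adjusted p = 0.0379). The other 2 genes of the side were called in neither comparison. Nup214, an FG-repeat protein of the filaments, had 189.5 and 207.8 CPM in hsbam, 281.0 and 204.2 in MSL3 RNAi and 202.4 and 206.3 in NC2b RNAi, with overlapping groups. mbo, the partner of Nup214, was at 80.3 and 90.3 CPM in hsbam. It was at 77.5 and 63.5 in MSL3 RNAi and 65.2 and 63.1 in NC2b RNAi, below the controls in all 4 libraries. The log2 fold changes of -0.20 and -0.31 did not pass.

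The single membrane-ring gene, Gp210 (FBgn0266580, chromosome 2R, 5760862 to 5774324), encodes a glycoprotein that spans the pore membrane. Its levels were 194.4 and 160.4 CPM in hsbam 1 and 2, 460.2 and 281.0 in MSL3 RNAi, and 410.1 and 394.2 in NC2b RNAi. All 4 MSL3 RNAi and NC2b RNAi libraries exceeded the controls. It rose by 1.13 (SE 0.27, edgeR adjusted p = 0.0326) in MSL3 RNAi and by 1.28 (SE 0.27, adjusted p = 0.0312) in NC2b RNAi, the largest change of the 25 genes there.

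The inner ring, the scaffold that spans the membrane pore, had 3 of 6 genes higher in MSL3 RNAi and 1 of 6 in NC2b RNAi. Nup154 (FBgn0021761, chromosome 2L, 11004820 to 11010921) was at 163.0 and 144.1 CPM in hsbam, 387.7 and 257.5 in MSL3 RNAi, and 286.4 and 274.4 in NC2b RNAi. Its groups did not overlap, and the log2 fold change was 1.14 (SE 0.24, edgeR adjusted p = 0.0210) and 0.97 (SE 0.23, adjusted p = 0.0416). Nup188 (FBgn0033766), a large scaffold protein related to Nup205, had 114.6 and 106.4 CPM in hsbam, 243.6 and 161.2 in MSL3 RNAi, and 154.8 and 161.8 in NC2b RNAi. It rose by 0.94 (SE 0.23, edgeR adjusted p = 0.0316) in MSL3 RNAi, while its 0.62 in NC2b RNAi did not pass although both libraries lay above the controls. Nup93-1 (FBgn0027537) was at 111.5 and 116.7 CPM in hsbam, 188.9 and 148.6 in MSL3 RNAi, and 145.5 and 148.2 in NC2b RNAi, with log2 fold changes of 0.64 (SE 0.17, edgeR adjusted p = 0.0429) and 0.46 (not passing). Its paralog Nup93-2 ranged from 40.5 to 50.6 CPM in hsbam and from 34.8 to 49.5 in MSL3 RNAi, and the groups overlapped. Nup205, at 230.2 and 203.0 CPM in hsbam, 265.1 and 191.2 in MSL3 RNAi and 221.2 and 172.1 in NC2b RNAi, overlapped as well.

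The outer ring, the Y-shaped scaffold on both faces of the pore, had 2 of 9 genes higher in MSL3 RNAi and 1 of 9 in NC2b RNAi. Nup98-96 (FBgn0039120, chromosome 3R, 23774225 to 23781621, minus strand) was at 224.3 and 201.5 CPM in hsbam, 566.8 and 386.4 in MSL3 RNAi, and 405.2 and 374.3 in NC2b RNAi. The 4 MSL3 RNAi and NC2b RNAi libraries lay above both controls, with log2 fold changes of 1.23 (SE 0.23, edgeR adjusted p = 0.0169) and 0.97 (SE 0.23, adjusted p = 0.0405). Elys (FBgn0031052) had 109.7 and 82.3 CPM in hsbam, 196.5 and 140.2 in MSL3 RNAi, and 160.2 and 140.0 in NC2b RNAi. It rose by 0.88 (SE 0.24, edgeR adjusted p = 0.0460) in MSL3 RNAi, and its 0.74 (adjusted p = 0.0810) in NC2b RNAi did not pass. The other 7 genes of the ring were called in neither comparison. Nup44A and Nup75 lay below the controls without overlap in both, with log2 fold changes of -0.32 and -0.24 in MSL3 RNAi and -0.18 and -0.21 in NC2b RNAi. Nup160, Nup37 and Nup43 overlapped the controls in MSL3 RNAi and lay above them in NC2b RNAi, at 0.18, 0.40 and 0.46. Nup107 was at 101.6 and 87.7 CPM in hsbam, 94.9 and 72.0 in MSL3 RNAi, and 97.3 and 76.0 in NC2b RNAi, with overlapping groups. Nup133 was at 106.6 and 79.2 CPM, 133.3 and 95.8, and 118.1 and 120.2 in the same order, above the controls in both NC2b RNAi libraries and overlapping them in MSL3 RNAi.

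In the central channel, Nup54 (FBgn0033737) was at 60.4 and 58.1 CPM in hsbam, 100.8 and 77.9 in MSL3 RNAi, and 83.3 and 84.5 in NC2b RNAi. All 4 MSL3 RNAi and NC2b RNAi libraries lay above the controls. It rose by 0.67 (SE 0.18, edgeR adjusted p = 0.0412) in MSL3 RNAi, and its 0.60 (adjusted p = 0.0639) in NC2b RNAi did not pass. 10.6% of its exon bases lie under CG43204 on the other strand. Its partners in the channel, Nup58 and Nup62, were called in neither comparison. Nup58 had 44.3 and 45.9 CPM in hsbam, 56.2 and 46.3 in MSL3 RNAi, and 56.6 and 56.5 in NC2b RNAi. Nup62 had the lowest log2 fold change of the 25 in each comparison, -0.39 and -0.31. Its controls, at 97.6 and 162.9 CPM, lay farther apart than the libraries of MSL3 RNAi or of NC2b RNAi.

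**Figure D3:**
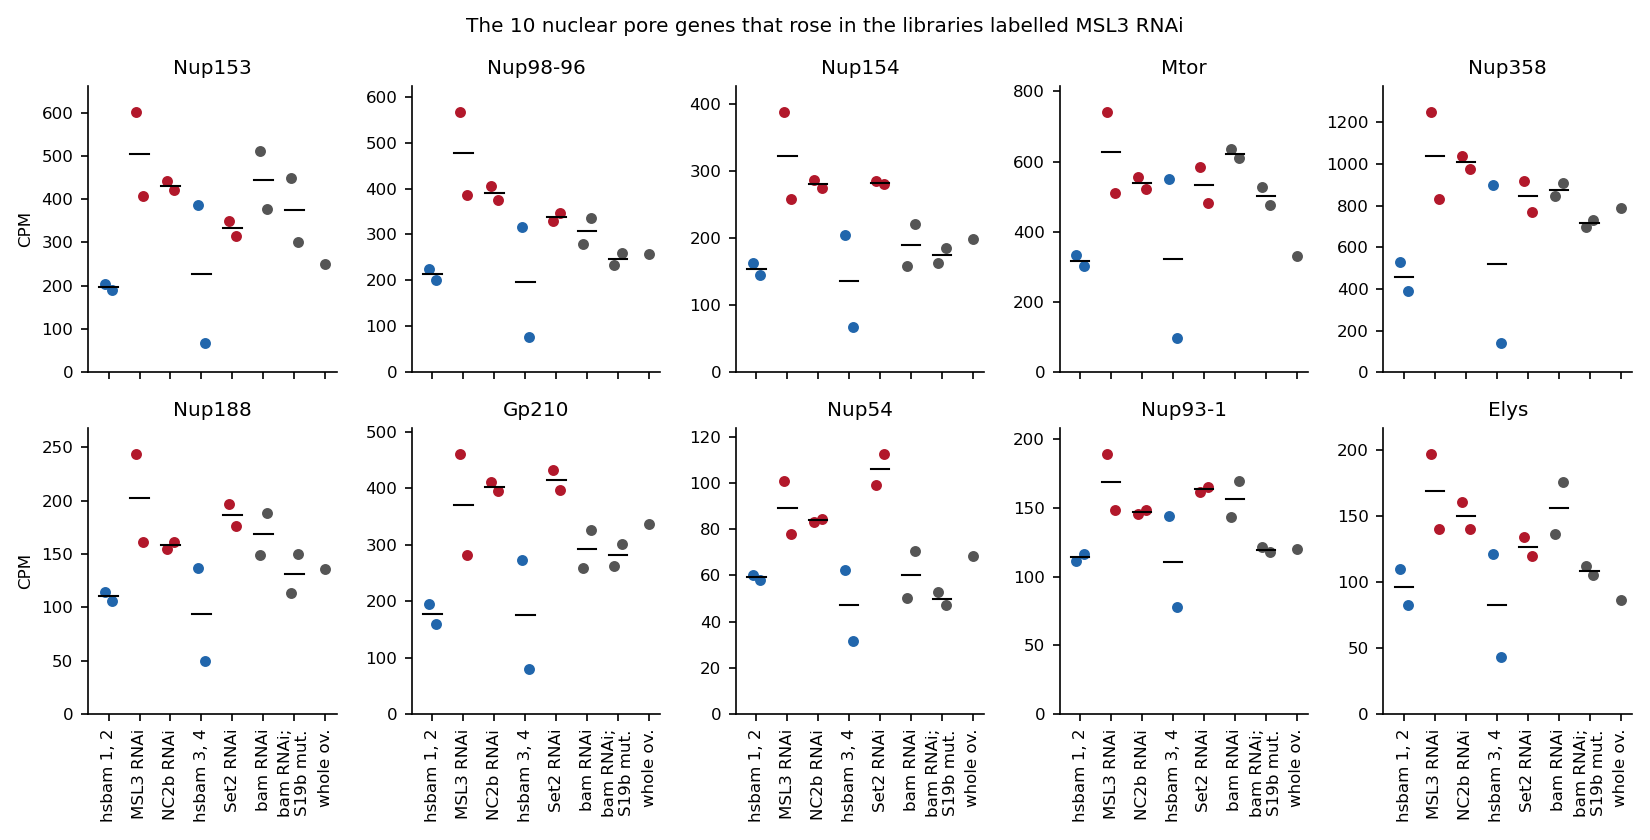
CPM of the 10 nuclear pore genes that rose in MSL3 RNAi (1 panel a gene) in the 15 libraries that were not fractionated, with 1 point a library and a line at the group mean (blue for hsbam, red for MSL3 RNAi, NC2b RNAi and Set2 RNAi, grey for bam RNAi, its S19b mutant and whole ovaries). MSL3 RNAi and NC2b RNAi lie above hsbam 1 and 2 in all 10 panels, and hsbam 3 and 4 lie far apart in each.

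MSL3 RNAi 1 was above MSL3 RNAi 2 for all 25 genes, with summed pore-gene levels of 6413 and 4463 CPM, beside 5135 and 4879 in NC2b RNAi and 3466 and 3213 in hsbam 1 and 2. The calls changed with the libraries used, and so did those of all genes. Without hsbam 2, 1 pore gene was called in MSL3 RNAi (Nup153, beside 12% of all genes) and 0 in NC2b RNAi (3.48%). Without hsbam 1 the counts were 5 (18.7% of all genes) and 1 (11.2%). Without MSL3 RNAi 1 they were 2 (9.87%) and 8 (26%), and without MSL3 RNAi 2 they were 10 (25.9%) and 8 (26.3%). Without NC2b RNAi 1 they were 1 (9.15%) and 0 (0%), and without NC2b RNAi 2 again 1 (8.93%) and 0 (0%). With hsbam 3 and 4 as controls in place of hsbam 1 and 2, 0 of the 25 and 0% of all genes passed in either comparison, with medians of the 25 genes of 0.62 and 0.60.

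Compared directly, MSL3 RNAi and NC2b RNAi differed in 0 of the 25 genes and 0% of all genes tested (edgeR). DESeq2 called 0 of the 25, beside 2.32% of all genes. None of the 25 had an unadjusted edgeR p under 0.05, against 1178 of all 10180 genes. MSL3 RNAi lay above NC2b RNAi without overlap for 1 gene (23.9% of all genes) and below it for 1 (23.2%). The differences ran from -0.18 (Nup43) to 0.33 (Nup188) on the log2 scale, with SEs of 0.16 to 0.28 that leave room for differences of that size.

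The genes that rose were mostly the long ones. Of the 10 pore genes with at least 5000 bases of exon, 8 rose in MSL3 RNAi (all but Nup205 and Nup214) and 5 in NC2b RNAi. Of the 8 between 2000 and 5000 bases, 2 and 0 rose, and of the 7 under 2000 bases none rose in either. The same order held over all genes, where 37.9%, 23.3% and 6.24% of the 3 classes rose in MSL3 RNAi and 30.8%, 18.7% and 6.08% in NC2b RNAi. Across the 25 genes, Spearman's rho of exon length with log2 fold change was 0.73 and 0.66, against 0.33 and 0.16 across all genes with a length (these are descriptions across genes that share libraries and are not independent). Long and short genes also moved apart between libraries, measured as the median of long genes less that of short genes on the log2 scale. Within 1 group this was -1.10 in hsbam 4 and 0.31 in hsbam 3. In the 2 comparisons here the difference lay between groups. It was -0.11 and -0.21 in hsbam 1 and 2, 0.58 and 0.66 in MSL3 RNAi 1 and 2, and 0.31 and 0.16 in NC2b RNAi 1 and 2. With a fit that removes the trend with exon length library by library, a setting added after the data were seen, 0 of the 25 passed in either comparison, while 16% and 15.1% of all genes did. The median of the 25 genes was then 0.46 in MSL3 RNAi and 0.43 in NC2b RNAi, beside 0.01 over all genes in each. Nup153 had a log2 fold change of 0.96 (edgeR adjusted p = 0.0728) in MSL3 RNAi and 1.02 (adjusted p = 0.0621) in NC2b RNAi, and 6 and 8 of the 25 had an unadjusted p under 0.05.

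**Figure D4:**
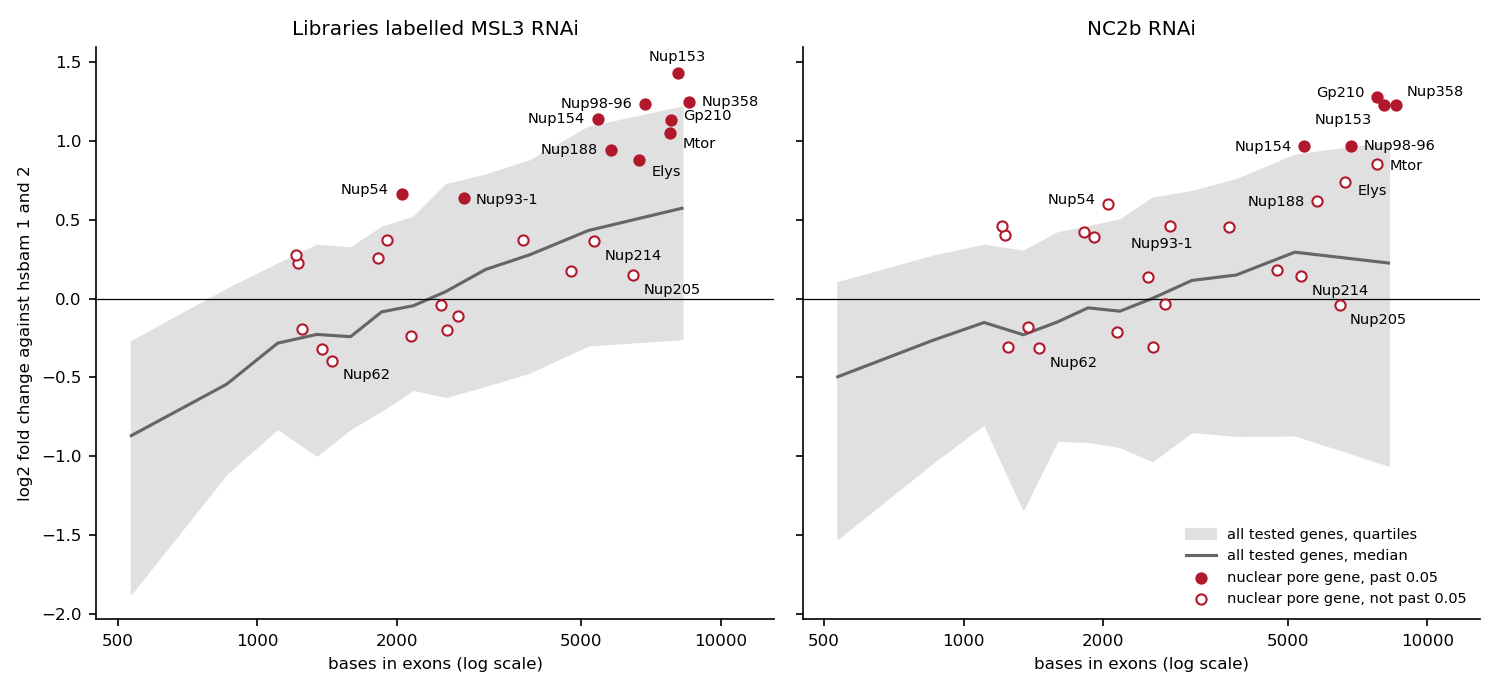
log2 fold change against hsbam 1 and 2 (vertical axis) against bases in exons (horizontal axis, log scale) for the 25 nuclear pore genes in MSL3 RNAi (left) and NC2b RNAi (right). The line and band are the median and quartiles of all tested genes in 12 bins of length. Filled points passed an adjusted p of 0.05, and in MSL3 RNAi 8 of the 10 lie at 5000 bases or more.

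The X chromosome, where the MSL complex acts in males, held 5 pore genes. 3 of the 5 rose in MSL3 RNAi (Nup153, Nup93-1 and Elys) and 1 in NC2b RNAi (Nup153), against 7 and 4 of the 20 on other chromosomes. Over all genes tested, 20.3% of X-linked genes and 16.1% of the others rose in MSL3 RNAi, and 16.6% and 13.5% in NC2b RNAi.

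Of the lists of genes that work with the pore, the transport receptors and the lamina and envelope genes had the larger shares called as higher, to be read beside 16.8% of all genes in MSL3 RNAi and 14.1% in NC2b RNAi. Of 17 transport receptors, 7 rose in MSL3 RNAi and 6 in NC2b RNAi and none fell, with medians of 0.65 and 0.54. The list held importins and exportins, which carry cargo through the channel, together with sbr and Nxt1, which act in mRNA export. Tnpo (transportin) rose by 1.58 and 1.68, Ranbp21, an exportin, by 1.76 and 1.61, Cse1, which returns importin alpha to the cytoplasm, by 1.07 and 0.95, and Kap-alpha1, an importin alpha, by 0.75 and 0.82. Of 13 tested genes of the nuclear lamina and envelope, 5 rose in MSL3 RNAi and 3 in NC2b RNAi, with medians of 0.66 and 0.36. They included MAN1, an inner nuclear membrane protein, by 1.30 and 1.31, klar by 0.98 and 0.80 and koi by 0.82 and 0.66, both of the bridge between nucleus and cytoskeleton. Of 7 tested genes of the Ran cycle, 1 rose in each, Rcc1, the exchange factor that charges Ran with GTP in the nucleus, by 1.51 and 1.54. The medians of the 7 were -0.13 and 0.27. Of 11 mRNA export factors, tho2 alone rose, in MSL3 RNAi by 0.70, and none was called in NC2b RNAi, with medians of 0.01 and 0.25. Of 6 other pore subunits and pore-bound factors, Gle1, which in yeast activates the helicase that strips proteins from exported messenger RNA, rose by 1.21 and 1.27. Dbp80, the fly helicase of that family, fell by 1.05 in MSL3 RNAi.

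In Set2 RNAi, edgeR called 0 of the 25 pore genes and 0% of all 9313 genes tested against hsbam 3 and 4. DESeq2 called 0 of the 25, beside 14.5% of all genes. In the edgeR fit 2 pore genes, Nup58 and Nup37, had an unadjusted p under 0.05, against 1972 of all 9313 genes. 24 of the 25 log2 fold changes were above 0, with a median of 0.47 beside 0.04 over all genes, and for 17 genes both Set2 RNAi libraries lay above both controls, against 39% of all genes, and for 0 below them, against 25.5%. The controls lay far apart for Nup358, at 898.4 CPM in hsbam 3 and 140.4 in hsbam 4, with Set2 RNAi at 918.3 and 771.8. Mtor was at 551.1 and 96.2 CPM in the controls and at 584.0 and 481.0 in Set2 RNAi. For both genes the Set2 RNAi libraries lay on either side of hsbam 3 and far above hsbam 4. Against hsbam 3 alone 4 pore genes rose (Nup58, Nup54, Nup37 and Nup44A) while 24.9% of all genes were called. Against hsbam 4 alone 20 rose, with 57.8% of all genes called, and against hsbam 1 and 2 7 rose, with 36.6% called. Against all 4 hsbam libraries 0 of the 25 were called and 6.4% of all genes.

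Nup58 and Nup54 were called against hsbam 3 alone, hsbam 4 alone and hsbam 1 and 2, and not against hsbam 3 and 4 or all 4 libraries. Nup58 was at 38.1 and 17.5 CPM in hsbam 3 and 4 and at 68.9 and 85.0 in Set2 RNAi, with a log2 fold change of 1.30 (SE 0.44, edgeR adjusted p = 0.193). Nup54 was at 62.5 and 31.5 CPM in the controls and at 99.3 and 112.4 in Set2 RNAi, 1.00 (SE 0.41, adjusted p = 0.260). Gp210 was at 272.4 and 80.0 CPM and at 432.9 and 396.5. Set2 RNAi exceeded both controls for all 3 genes. Summed muscle-sheath markers were 8658 to 18828.5 CPM in hsbam 3 and 4 and 716.5 to 738.6 in Set2 RNAi, and summed heat-shock genes (6 genes, with Hsp22 at 0 in all 23 libraries) were 23951 to 34109.9 and 6170 to 6186. Their part in these differences was not tested.

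With the S19b mutation in bam RNAi ovaries, edgeR called 0 of the 25, against 6.13% of 9595 genes tested. Of all genes, 5.52% were called as higher and 0.604% as lower. DESeq2 called 0 of the 25, beside 12.2% of all genes. In the edgeR fit 4 pore genes had an unadjusted p under 0.05, against 2208 of all 9595 genes: Nup35, Nup205, Elys and Nup107. 23 of the 25 log2 fold changes were below 0, with a median of -0.32 beside 0.00 over all genes, and for 12 genes both mutant libraries lay below both bam RNAi libraries, against 28.3% of all genes, and for 0 above them, against 26.6%. Nup35, an inner-ring protein that binds the membrane, was at 57.5 and 75.6 CPM in bam RNAi 1 and 2 and at 42.2 and 37.1 in the mutant, without overlap, and its log2 fold change of -0.69 (SE 0.20, edgeR adjusted p = 0.0985) was the lowest of the 25. Nup205 was at 250.3 and 332.6 CPM and at 190.9 and 208.6 in the mutant, -0.49 (SE 0.19, adjusted p = 0.191). Elys was at 135.9 and 175.3 CPM and at 111.9 and 104.8, -0.46 (SE 0.19, adjusted p = 0.200). Both mutant libraries lay below both bam RNAi libraries for Nup205 and Elys too. With same-numbered libraries taken as blocks, 4 passed as lower (Nup35, Nup205, Nup62 and Nup214), beside 22.4% of all genes. No label pairs these libraries. Without mutant library 1, the log2 fold change of Nup35 was -0.85.

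Markers of other cells moved the other way in the same libraries. All 4 muscle-sheath markers, 3 of 9 follicle and eggshell markers and 2 of 5 fat body and hemocyte markers rose. The summed germline markers went from between 1109.95 and 1165 CPM to between 810.6 and 915.2. None of the 5 germline markers was called, and their log2 fold changes ran from -0.93 to 0.64. The part of these marker changes in the pore genes' lower values was not tested. Of the genes that work with the pore, 1 was called, Msp300, which links nuclei to actin and muscle, which rose by 1.47.

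Between bam RNAi and the 4 hsbam libraries, edgeR called 0 of the 25 and 0% of all 10088 genes. The design gives these as separate experiments. None of the 25 had an unadjusted edgeR p under 0.05, against 1980 of all genes, and DESeq2 called 0 of the 25. 21 of the 25 log2 fold changes were above 0, with a median of 0.43 beside -0.11 over all genes, and for 7 genes both bam RNAi libraries lay above all 4 hsbam libraries (20.8% of all genes) and for 0 below (14.2%). Nup214 had the largest, 1.01 (SE 0.47, edgeR adjusted p = 0.277), with 344.5 and 370.0 CPM in bam RNAi above the 189.5, 207.8, 192.4 and 51.5 of hsbam 1 to 4. Nup153 was at 511.6 and 377.6 CPM in bam RNAi, and hsbam 3, at 387.3, lay between them. Genotype and experiment cannot be told apart here.

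The 2 pairs of hsbam controls had no pore gene called between them and 0% of 10031 genes (edgeR). Of the 25, 0 had an unadjusted edgeR p under 0.05, against 595 of all genes, and DESeq2 called 0. Both libraries of the hsbam 3 and 4 pair lay below both of the other pair for 8 pore genes (25% of all genes) and above them for 0 (12.4%). Summed heat-shock genes were 3615 to 4290.5 CPM in hsbam 1 and 2 and 23951 to 34109.9 in hsbam 3 and 4, with a median log2 fold change of 3.88 and none of the 5 tested called. Their part in the pore genes' values was not tested. Within hsbam 3 and 4 the long pore genes lay farthest apart: the log2 ratio of hsbam 4 to hsbam 3 was -2.68 for Nup358, -2.53 for Nup153 and -2.52 for Mtor, while Nup44A stood at 0.84. Summed pore-gene levels were 4331 CPM in hsbam 3 and 1479.8 in hsbam 4.

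In the fractionated ovaries no pore gene was called in any of 4 contrasts, each with 0% of 9688 genes called (edgeR). DESeq2 called 0 of the 25 in each. Its shares of all genes for S19b RNAi against hsbam were 0.475% in total RNA and 1.09% in polysome RNA. S19b RNAi against hsbam gave a median log2 fold change over the 25 genes of -0.19 in total RNA, where none had an unadjusted p under 0.05, and of -0.15 in polysome RNA, where Nup188 did. Over all genes these medians were 0.04 and 0.12, and 170 and 320 genes had an unadjusted edgeR p under 0.05. Both S19b RNAi libraries lay above both controls for 1 pore gene in total RNA (17.4% of all genes) and below them for 0 (13.7%), and in polysome RNA for 1 (13.9%) and 4 (9.82%). Summed heat-shock genes were 21305 to 27283 CPM in hsbam total RNA and 2967 to 4487 in S19b RNAi total RNA, and 21481 to 43029 and 3709 to 3905 in polysome RNA, without overlap, and their part was not tested. Nup188 was at 148.9 and 141.0 CPM in hsbam polysome RNA and at 78.2 and 64.0 in S19b RNAi polysome RNA, without overlap, a log2 fold change of -1.27 (SE 0.53, edgeR adjusted p = 0.989). Polysome against total RNA over both genotypes gave a median of -0.04 beside -0.03 over all genes, from -0.85 (Nup37) to 0.84 (Nup58). The difference between genotypes in that ratio ran from -1.33 (mbo, SE 0.86) to 1.27 (Nup37, SE 1.99), with none at an unadjusted p under 0.05 in either contrast.

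Library differences within groups were large in this experiment. Nup358 was at 538.4 and 365.4 CPM in hsbam total RNA, 502.1 and 134.9 in hsbam polysome RNA, 427.5 and 435.4 in S19b RNAi total RNA, and 450.8 and 256.7 in S19b RNAi polysome RNA. Nup205 was at 391.3 and 28.8 CPM in the hsbam polysome libraries. In hsbam polysome 2, Nup37 had 1 count and Nup44A 2 counts, so their ratios rest on few reads. Without hsbam polysome 1, only those 2 counts were left as the control of Nup44A in polysome RNA. Its log2 fold change in S19b RNAi was then 6.06, beside a median of 0.93 over all genes.

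Whole ovaries gave 1 library and no test. Nup358 was the highest pore gene there at 790.2 CPM (exact 95% interval 780.2 to 800.3), followed by Gp210 at 335.8 (329.3 to 342.4) and Mtor at 329.7 (323.3 to 336.2). The lowest were Nup37 at 28.1 CPM (26.3 to 30.1) and Nup35 at 28.3 (26.4 to 30.2). The summed pore-gene level was 3857 CPM, within the range of the 4 hsbam libraries.

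**Figure D5:**
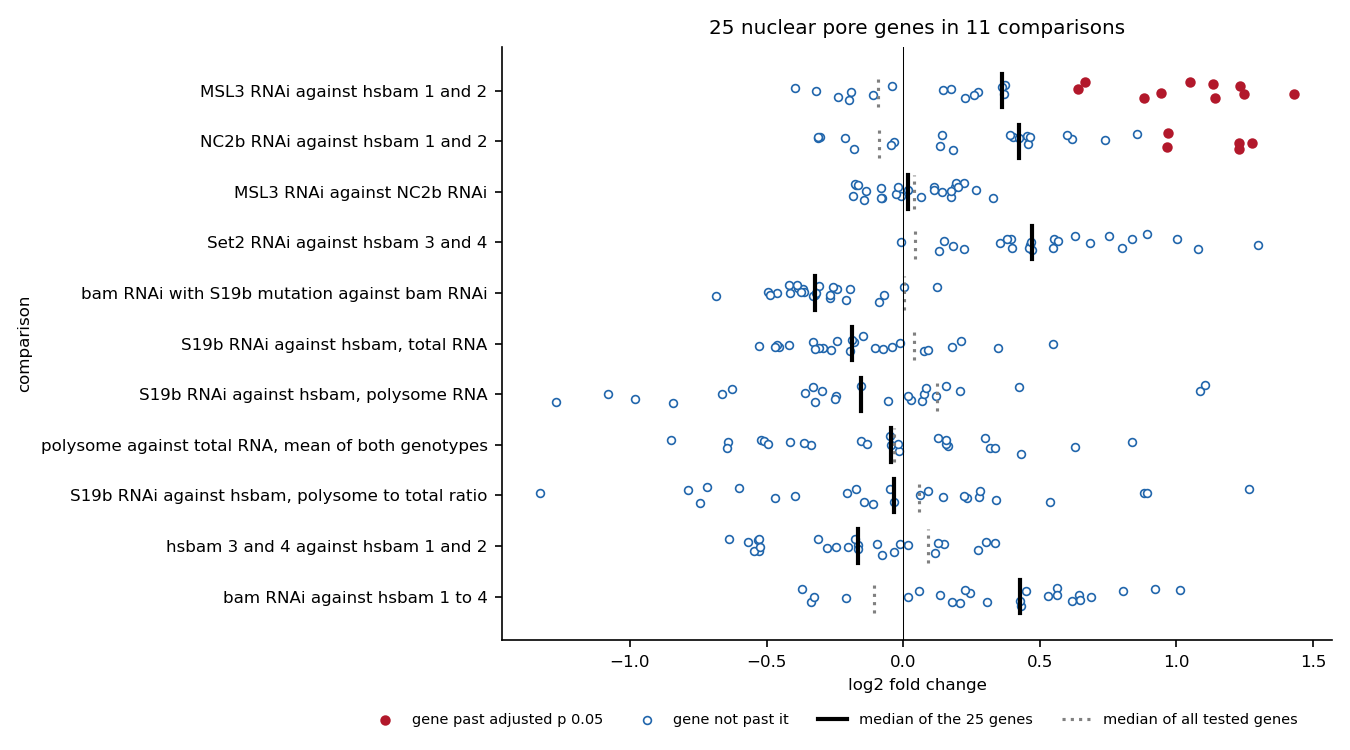
log2 fold change (horizontal axis) of the 25 nuclear pore genes in each of the 11 comparisons (vertical axis), with 1 point a gene, black bars at the median of the 25 and dotted bars at the median of all tested genes. Genes past an adjusted p of 0.05 (red) are seen in the upper 2 comparisons alone, 10 and 5 of them. The medians lie above those of all genes in MSL3 RNAi, NC2b RNAi and Set2 RNAi against hsbam and in bam RNAi against hsbam. They lie below in every other comparison, at -0.32 beside 0.00 with the S19b mutation and -0.17 beside 0.09 between the hsbam pairs.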

How the data were processed

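Raw gene counts of 23 libraries were used, as deposited by the authors; per the submitters' processing notes reads were mapped to dm6 with HISAT2 2.1.0 and counted with featureCounts 1.6.0.4, and edgeR 3.16.5 was used. Neither the annotation release nor the strand setting of the counting is stated. Per the labels' protocols, libraries came from poly(A) RNA with a directional kit. 8 smaller tables were not used here. Identifiers were paired with symbols, coordinates and exon lengths through Ensembl release 115 (BDGP 6.54), which gave a symbol to 16647 of the 17023 genes.

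Groups were fitted in R 4.3.3 with edgeR 4.0.16 (filterByExpr with a minimum count of 10 and a minimum total of 15, TMM scaling, quasi-likelihood test, Benjamini-Hochberg adjustment over all genes tested, threshold 0.05). MSL3 RNAi, NC2b RNAi and hsbam 1 and 2 shared a fit, as did the 4 fractionated groups. Fold changes are log2 with SE = |log2 fold change| / √F. CPM used library totals without TMM. The alternatives were DESeq2 1.42.0, other scalings, no filter, other control libraries, a replicate block, all libraries in 1 fit, each library left out, and a fit corrected for exon length. Library totals of 2780781 to 39149303 set the precision of each level. The scripts were tested on simulated data. Figures were drawn with matplotlib 3.10.9 under Python 3.11.15.

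The genes described by name were 16 chosen by role and, in each comparison, up to 5 called genes with the smallest p in each direction, or 3 for each list of related genes; other genes were named after their values were seen. The 25 genes and the lists were chosen with earlier results of these data known. Of the lists, 6 of 9 other pore genes, 17 of 20 transport receptors, 8 of 8 Ran-cycle genes, 11 of 12 export factors and 14 of 14 lamina and envelope genes were matched to the files.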

Additional observations from a re-analysis of the deposited data

Results flagged for a closer look

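3 of the 25 genes had a level in hsbam 4 that stood apart from those of hsbam 1, 2 and 3, by Dixon's test for 1 outlying value among 4 at the 95% level, which chance passes in about 1 of 20 groups. Nup160 was at 69.73 CPM in hsbam 4 against 146.3 to 160.4 in the other 3 libraries. Nup54 was at 31.53 CPM against 58.09 to 62.53. Nup214 was at 51.47 CPM against 189.5 to 207.8.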

How the results depend on the processing

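In MSL3 RNAi against hsbam 1 and 2, 10 pore genes were called, beside 25.3% of all genes (shares of all genes are in brackets below). With scaling by DESeq2 size factors (23.3%) or by library size alone (24.2%) 7 were called. Without the filter (17.8%) or with the DESeq2 test (33.1%) 10 were called, and with the replicate block 8 (18.9%). The count was 0 with all 23 libraries in 1 fit (0%) and with hsbam 3 and 4 (0%) or all 4 hsbam libraries (0.169%) as control. In settings added after the data were seen, it was 0 with the offset for exon length (16%) and without NC2b RNAi in the fit (7.3%). Leaving out each library gave 1 to 10. In NC2b RNAi the count was 5 (18.6%), and 3 with DESeq2 size factors (16.5%) or with library size alone (16%). It was 6 without the filter (14.7%) and 6 with DESeq2 (32.7%), with Mtor joining in both. It was 0 with all 23 libraries in 1 fit (0%) and with hsbam 3 and 4 (0%) or all 4 hsbam libraries (0.0282%) as control. With the length offset it was 0 (15.1%), and without MSL3 RNAi in the fit 8 (31.6%). Set2 RNAi went from 0 to 7 with hsbam 1 and 2 as control and ran from 0 to 20 with each library left out. The S19b mutation went from 0 to 1 without the filter (10.3%) and to 4 with the replicate block (22.4%), all lower. Its count and that of S19b RNAi in polysome RNA also changed with 1 library left out. The other 6 comparisons gave 0 in every setting run. Nup153 in MSL3 RNAi was called in 11 of 16 alternatives, with a log2 fold change of 0.96 to 1.69 and adjusted p of 7.4e-06 to 0.425, while Nup54 and Nup93-1 were called in 3 of 16 each, with adjusted p up to 0.753 and 0.479. Every called gene kept its direction in all 16. Library size in place of TMM moved the median of all genes from 0.04 to 0.21 in Set2 RNAi, from -0.11 to 0.07 in bam RNAi, from 0.09 to -0.08 between the hsbam pairs and from 0.12 to 0.25 in S19b RNAi polysome RNA. The median of the 25 genes moved with it, to 0.64, 0.59, -0.33 and -0.10, and in polysome against total RNA it turned from -0.04 to 0.06. The cause of these shifts was not tested. No label says that same-numbered libraries share animals or a day, so the block is an alternative alone. The correlation of their deviations over 9071 genes was 0.46 and 0.28 between total and polysome RNA of S19b RNAi and hsbam, 0.24 between bam RNAi and its S19b mutant, and -0.29 to 0.14 elsewhere. With a replicate block 8, 5 and 4 genes were called in MSL3 RNAi, NC2b RNAi and the S19b mutation. The shares of all genes were 18.9%, 12.4% and 22.4%. With the S19b mutation the 4 were Nup205, Nup35, Nup62 and Nup214. Between S19b RNAi and hsbam that correlation was -0.29 in total and -0.24 in polysome RNA, and crossing the numbers left 0 pore genes called in each, with 8 and 15 of all genes. No paired analysis was possible because no numbers are shared in the comparisons of Set2 RNAi with hsbam 3 and 4 and of the 2 hsbam pairs. Where 1 library was left in a group, it was assumed to vary like the others. With 2 libraries a group, hsbam polysome 2 at 2780781 counts and hsbam 4 with few reads on long genes limit what can be detected.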
